A study of Rattus norvegicus with 36 samples.

Results

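The genes described here are PPAR-alpha targets and genes of fatty acid oxidation, a list of 37 chosen by name, in the liver of rats dosed with HCDBCO. A gene was measured by the probe sets that the array annotation gives to it alone, and among several the one brightest on average over the 36 arrays stood for it. By that rule 34 of the 37 genes were measured, of 14217 named genes on the array. They fell into 3 Cyp4a genes, 8 genes of peroxisomes, 14 of mitochondria and 9 for uptake and storage of fatty acids and for regulation. Cyp4a2, Acaa1a and Acaa1b had no probe set of their own and were read only through probe sets shared with a close relative.

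HCDBCO, hexachlorocyclopentadienyl-dibromocyclooctane, is a halogenated flame retardant. Male Sprague Dawley rats, 7 weeks old when the study began, were dosed by mouth (gavage) on 5 days in a row. The 5 treated groups received HCDBCO in corn oil at 541 mg/kg or at 54.1, 5.41, 0.54 or 0.05 mg/kg, and the vehicle group received corn oil alone in the same volume of 5 ml/kg. Each group had 6 samples, 1 array each, from the left lobe of the liver taken 1 day after the last dose. All animals ate a standard diet and drank tap water freely, and no fasting is labelled. The labels number the replicates without naming animals, and the p-values therefore reflect sample-to-sample spread, which may be partly technical.

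PPAR-alpha is a nuclear receptor that fatty acids and fibrate drugs activate. It pairs with the retinoid X receptor and binds DNA at a direct repeat spaced by a single base, called DR1. In rat and mouse liver its activators raise the genes that shorten very long chains in peroxisomes, the carnitine shuttle and beta-oxidation spiral of mitochondria, and the Cyp4a enzymes that hydroxylate the far end of a fatty acid. Fasting raises many of the same genes.

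Values are the authors' log2 values, 1 per probe set and array, so a difference of 1 is a doubling. A gene is called changed where its adjusted p from limma, over all 31042 probe sets tested, lies below an FDR of 5%. In RNA from whole liver, fewer cells of a type and less RNA per cell cannot be told apart. Array medians ranged from 5.06 to 5.16. The array of 54.1 mg/kg replicate 5 stood apart in its distribution, with quartiles of 3.79 and 6.94, and no count of members past the FDR changed without it. That of vehicle replicate 3 had the lowest median, with the lowest lower quartile (3.62) and the highest upper quartile (7.13) of all arrays. All 8 measured hepatocyte marker genes, such as Alb (albumin), had group means between 13.3 and 14.7, near the top of the scale, whereas the muscle markers had group means of 2.71 to 5.61. None of 64 measured cell type markers passed the FDR at a dose.

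The upstream sequences of 4 members are shown because Fabp1 carries a DR1 match, Cyp4a8 passed a test described below, and Cyp4a3 and Cyp4a2 share a probe set. They are from RefSeq on assembly GRCr8, 5′ to 3′ on the strand of the gene, and end at the base before the annotated start. The search used AGGNCANAGGNCA for DR1, on both strands, in windows of 250 bases before to 50 after each start. It matched 139 of 33469 windows (0.415%), among them 1 of 31 windows of 30 members, that of Fabp1. In the 150 bases before Fabp1 (chr4:104749190-104749339, plus strand) capitals mark the match, which lies on the opposite strand from position -77 to -65. Fabp1 encodes the abundant fatty acid carrier of hepatocytes.
Fabp1: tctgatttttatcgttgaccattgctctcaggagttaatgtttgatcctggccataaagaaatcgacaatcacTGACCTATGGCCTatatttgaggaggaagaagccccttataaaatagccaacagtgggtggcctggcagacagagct
The 100 bases before Cyp4a8 (chr5:133970227-133970326), Cyp4a3 (chr5:134352237-134352336) and Cyp4a2 (chr5:134170909-134171008) lie on the minus strand and hold no match, so no base is in capitals.
Cyp4a8: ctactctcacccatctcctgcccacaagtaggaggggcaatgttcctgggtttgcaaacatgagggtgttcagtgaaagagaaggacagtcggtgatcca
Cyp4a3: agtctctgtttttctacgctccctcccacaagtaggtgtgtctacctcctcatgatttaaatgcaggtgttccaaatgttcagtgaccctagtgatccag
Cyp4a2: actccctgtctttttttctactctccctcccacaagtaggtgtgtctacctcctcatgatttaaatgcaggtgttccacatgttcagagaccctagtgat
Over 250 bases the Cyp4a2 and Cyp4a3 windows were 94.4% identical, whereas Cyp4a8 was 65.2% identical to Cyp4a3 and 62.4% to Cyp4a2. A second motif, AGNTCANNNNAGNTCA (DR4, the kind of repeat that the xenobiotic receptor CAR can bind), was in 19 of the 33469 windows (0.0568%) and in none of the members' windows. A match describes the letters only, and a window without one says nothing about the receptor.

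No gene of fatty acid oxidation on the list passed the FDR against vehicle at any dose. At 0.05, 0.54 and 5.41 mg/kg the background was also 0% of all probe sets. At 54.1 mg/kg 0.0741% of probe sets passed and at 541 mg/kg 0.155%. At an unadjusted limma p below 0.05 the counts were 1 of 34 at 0.05 mg/kg (background 3.02%), 1 at 0.54 mg/kg (4.18%), 0 at 5.41 mg/kg (4.83%), 2 at 54.1 mg/kg (9.2%) and 3 at 541 mg/kg (9.07%). At 0.05 mg/kg the member was Cpt1b and at 0.54 mg/kg Acaa2, and both were the members at 54.1 mg/kg, each lower than vehicle. At 541 mg/kg Cyp4a8 was higher and Cpt1a and Angptl4 were lower.

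At 541 mg/kg 13 members had a higher mean than vehicle and 21 a lower one, and their median difference was -0.033 against 0.0076 over all probe sets. The 95% interval of the difference ended below a 1.5-fold rise for all 34 members, and above a 1.5-fold fall for 30. By class the median difference at 541 mg/kg was -0.14 for Cyp4a, 0.0058 for peroxisomal, -0.044 for mitochondrial and -0.025 for uptake and regulatory genes. At 54.1 mg/kg the same medians were 0.11, 0.040, 0.029 and 0.035. Differences between the classes were not tested. The doses share the vehicle arrays, so their values are not independent of each other.

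**Figure D1:**
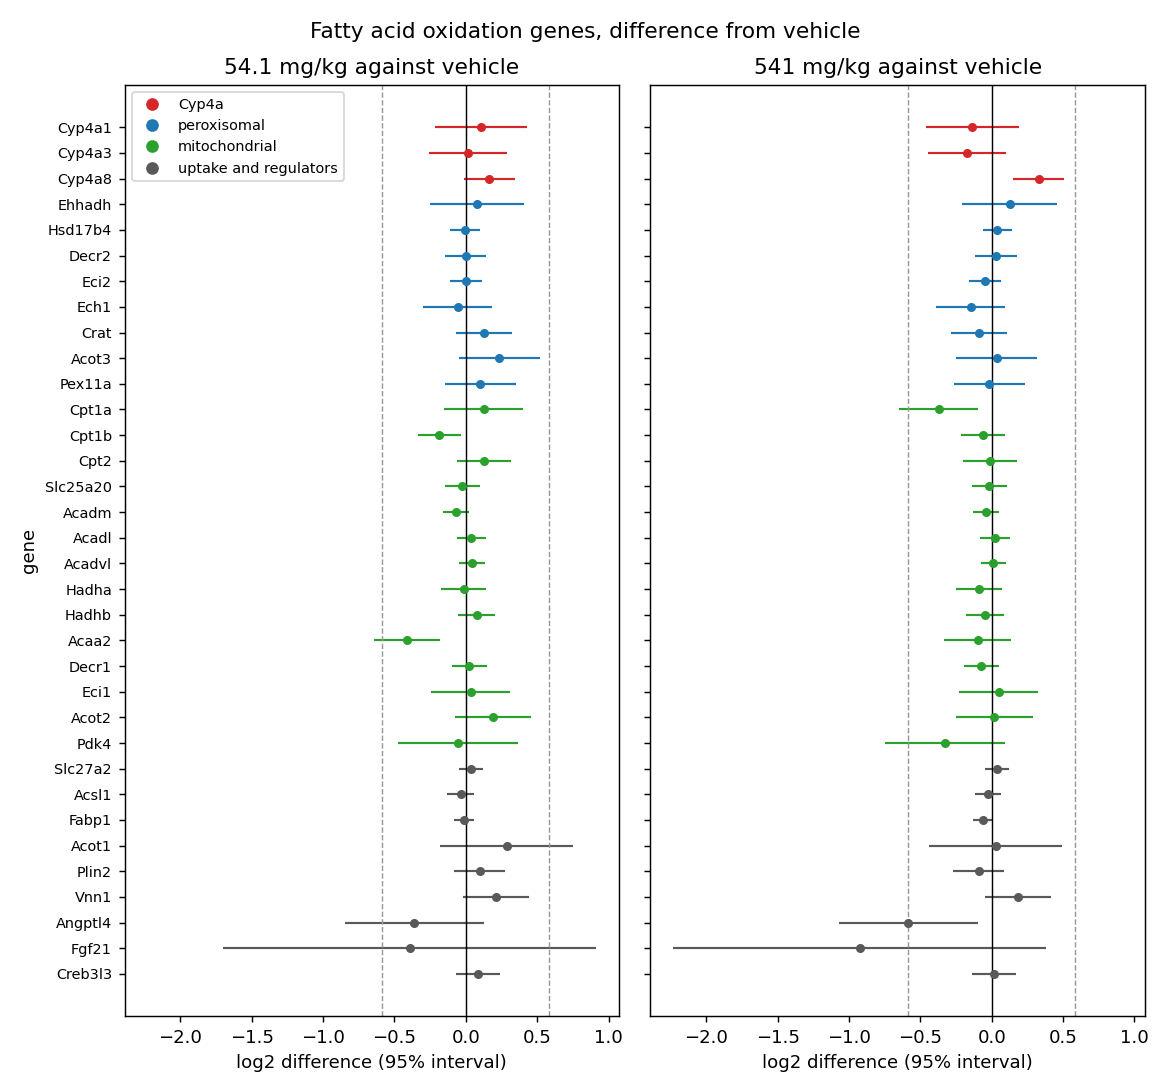
Log2 difference from vehicle of the 34 fatty acid oxidation genes at 54.1 mg/kg (left) and 541 mg/kg (right), with its 95% interval, coloured by class. The dashed lines mark a 1.5-fold rise and fall. At 541 mg/kg Cyp4a8 has the highest difference (0.33) and Fgf21 the lowest (-0.93), with the widest interval.

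Cyp4a8, a member of the Cyp4a family of fatty acid hydroxylases, was the only member to pass the FDR in any of the comparisons made. Cyp4a8 had lowest, median and highest values of 4.955, 5.05 and 5.25 in vehicle, 5.02, 5.08 and 5.16 at 0.05 mg/kg, 4.80, 4.95 and 5.12 at 0.54 mg/kg, 4.66, 5.05 and 5.37 at 5.41 mg/kg, 5.000, 5.19 and 5.58 at 54.1 mg/kg, and 5.21, 5.40 and 5.63 at 541 mg/kg. Vehicle and 541 mg/kg overlapped in a narrow band, as the lowest sample at 541 mg/kg lay just under the highest vehicle sample. Cyp4a8 was higher at the 2 highest doses than at the 3 lowest by 0.29 ± 0.06 (SE; limma adjusted p = 0.0109), where 0.287% of probe sets passed. It also rose over the dose order, by 0.063 per step (limma adjusted p = 0.0375), where 0.715% of probe sets passed. Against vehicle alone the difference at 541 mg/kg was 0.33 ± 0.09, or 1.26-fold, and did not pass (limma adjusted p = 0.133).

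A dimmer probe set of Cyp4a8 had the same direction. Its mean was 4.78 in vehicle, 5.16 at 54.1 mg/kg and 5.27 at 541 mg/kg, and the 2 highest doses exceeded the 3 lowest by 0.55 (limma adjusted p = 0.00938). Both probe sets sat near the array medians, so Cyp4a8 was dim in these arrays. The rise over the dose order missed the FDR when any one of 8 arrays was left out, with a limma adjusted p of up to 0.0871. These were vehicle replicates 1, 3, 4 and 5, 0.05 mg/kg replicate 3 and 541 mg/kg replicates 1, 2 and 5. The comparison of the 2 highest with the 3 lowest doses passed whichever of its 30 arrays was left out.

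Cyp4a1 and Cyp4a3, the bright Cyp4a genes, encode hydroxylases of medium and long chain fatty acids that PPAR-alpha activators raise in rat liver. Cyp4a1 had lowest, median and highest values of 11.21, 11.57 and 11.69 in vehicle, 10.92, 11.58 and 11.85 at 0.05 mg/kg, 11.27, 11.72 and 12.14 at 0.54 mg/kg, 10.97, 11.37 and 12.14 at 5.41 mg/kg, 11.41, 11.58 and 11.84 at 54.1 mg/kg, and 11.13, 11.34 and 11.66 at 541 mg/kg. Cyp4a3 had lowest, median and highest values of 11.19, 11.63 and 11.85 in vehicle, 11.37, 11.55 and 11.94 at 0.05 mg/kg, 11.39, 11.68 and 11.99 at 0.54 mg/kg, 11.27, 11.72 and 12.08 at 5.41 mg/kg, 11.19, 11.62 and 11.91 at 54.1 mg/kg, and 11.16, 11.43 and 11.62 at 541 mg/kg. In both genes every dose group overlapped vehicle. The difference at 541 mg/kg was -0.14 ± 0.16 for Cyp4a1 (limma adjusted p = 0.857) and -0.17 ± 0.13 for Cyp4a3 (0.749). The probe set shared by Cyp4a3 and Cyp4a2 differed by -0.15 at 541 mg/kg (limma adjusted p = 0.647). The upper limits of the 95% interval at 541 mg/kg corresponded to a rise of 0.19 for Cyp4a1 and 0.10 for Cyp4a3. Thus at 541 mg/kg the dim Cyp4a8 and its bright relatives had opposite signs, and the difference between them was not tested. None of these differences passed the FDR. At 54.1 mg/kg all 3 Cyp4a genes were higher than vehicle, by between 0.017 and 0.17, and none passed.

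**Figure D2:**
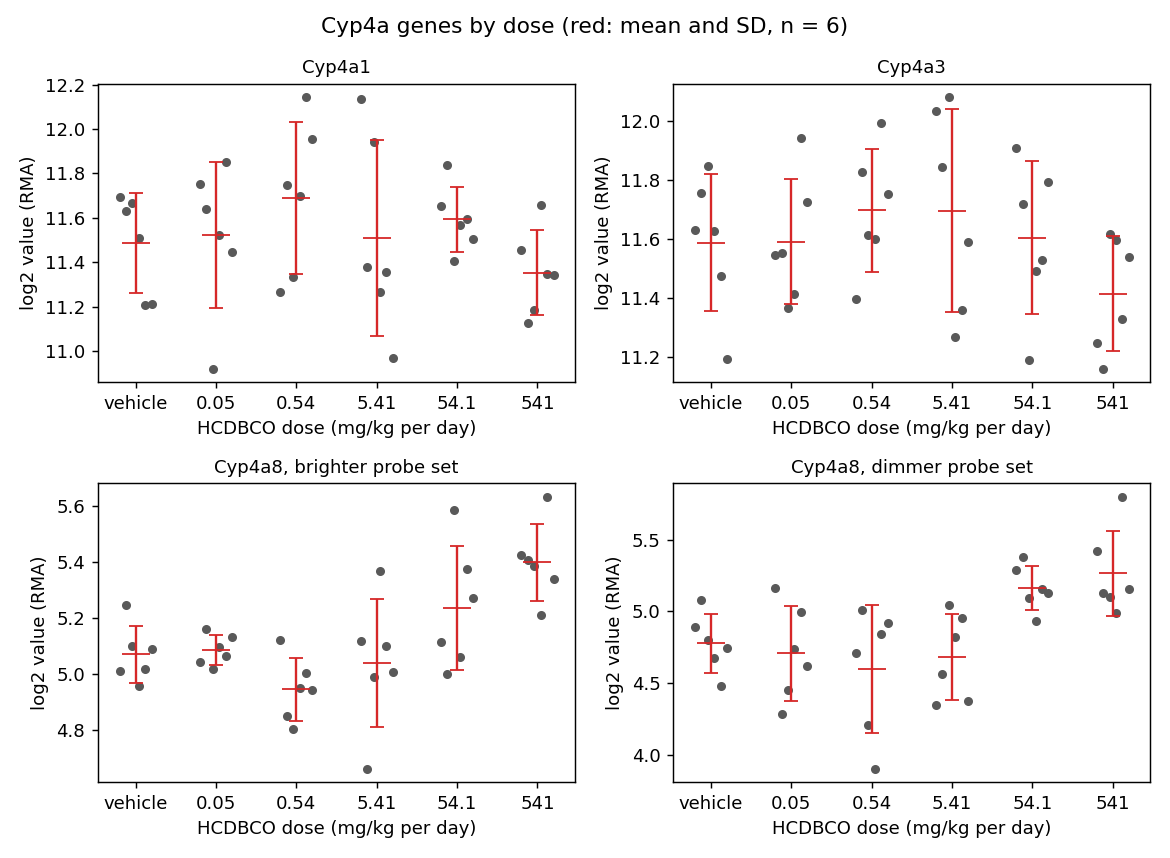
Log2 values of Cyp4a1, Cyp4a3 and both Cyp4a8 probe sets in each of the 36 arrays (points), by dose, with the group mean and SD (red, n = 6). The 541 mg/kg samples of Cyp4a8 lie at 5.21 to 5.63 against 4.955 to 5.25 in vehicle, while those of Cyp4a1 and Cyp4a3 lie within or just below the vehicle range. The vertical axes do not start at 0.

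None of the 8 peroxisomal genes passed the FDR in any comparison. Ehhadh encodes the bifunctional enzyme of peroxisomal beta-oxidation and is a classic PPAR-alpha target. Ehhadh had lowest, median and highest values of 10.79, 11.26 and 11.52 in vehicle, 11.15, 11.26 and 11.40 at 0.05 mg/kg, 11.13, 11.40 and 11.79 at 0.54 mg/kg, 10.52, 11.47 and 11.93 at 5.41 mg/kg, 11.08, 11.22 and 11.63 at 54.1 mg/kg, and 11.06, 11.34 and 11.66 at 541 mg/kg. All groups overlapped, and the 5.41 mg/kg group held both the lowest and the highest sample. The difference at 541 mg/kg was 0.13 ± 0.16 (limma adjusted p = 0.877).

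Ech1 and Eci2 encode auxiliary enzymes that move double bonds of unsaturated fatty acids, and Crat encodes carnitine acetyltransferase. Ech1 had lowest, median and highest values of 10.04, 10.26 and 10.54 in vehicle, 10.06, 10.30 and 10.69 at 0.05 mg/kg, 10.23, 10.34 and 10.65 at 0.54 mg/kg, 10.19, 10.34 and 10.79 at 5.41 mg/kg, 10.03, 10.15 and 10.47 at 54.1 mg/kg, and 9.71, 10.14 and 10.45 at 541 mg/kg. Eci2 had lowest, median and highest values of 10.92, 11.11 and 11.16 in vehicle, 11.05, 11.13 and 11.17 at 0.05 mg/kg, 10.93, 11.07 and 11.28 at 0.54 mg/kg, 10.99, 11.14 and 11.29 at 5.41 mg/kg, 11.02, 11.06 and 11.18 at 54.1 mg/kg, and 10.92, 11.05 and 11.13 at 541 mg/kg. Crat had lowest, median and highest values of 8.32, 8.48 and 8.73 in vehicle, 8.20, 8.43 and 8.66 at 0.05 mg/kg, 8.41, 8.61 and 8.81 at 0.54 mg/kg, 8.21, 8.69 and 8.87 at 5.41 mg/kg, 8.43, 8.64 and 8.85 at 54.1 mg/kg, and 8.18, 8.45 and 8.56 at 541 mg/kg. The vehicle range was reached by samples of every dose in all 3 genes. Their differences at 541 mg/kg were -0.15 for Ech1, -0.046 for Eci2 and -0.09 for Crat, with limma adjusted p = 0.763, 0.858 and 0.839. Ech1 differed between the 2 highest and the 3 lowest doses by -0.22 at an unadjusted p of 0.00745 (limma adjusted p = 0.335). The other peroxisomal members, Hsd17b4, Decr2, Acot3 and Pex11a, differed from vehicle at 541 mg/kg by between -0.018 and 0.040. The probe set that Acaa1b and Acaa1a share, for the peroxisomal thiolase, differed by 0.10 at 541 mg/kg and 0.12 at 54.1 mg/kg (limma adjusted p = 0.778 and 0.726).

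None of the 14 mitochondrial genes passed the FDR. Cpt1a encodes the liver form of carnitine palmitoyltransferase, the gate through which long chain fatty acids enter mitochondria. Cpt1a had lowest, median and highest values of 10.07, 10.36 and 11.005 in vehicle, 10.23, 10.53 and 10.85 at 0.05 mg/kg, 10.26, 10.58 and 11.06 at 0.54 mg/kg, 10.26, 10.65 and 11.03 at 5.41 mg/kg, 10.40, 10.45 and 10.91 at 54.1 mg/kg, and 9.87, 10.01 and 10.39 at 541 mg/kg. The 541 mg/kg group lay entirely below the 54.1 mg/kg group, at no more than 10.395 against no less than 10.399, but overlapped vehicle. Cpt1a at 541 mg/kg differed from vehicle by -0.37 ± 0.14 at an unadjusted p of 0.0098, short of the FDR (limma adjusted p = 0.335). A second Cpt1a probe set differed by -0.48 (limma adjusted p = 0.545). In that probe set the 2 highest doses overlapped, as 541 mg/kg reached 8.546 and 54.1 mg/kg went down to 7.882. The difference between 541 and 54.1 mg/kg was not tested. One vehicle sample, replicate 3, lay at 11.005, and without it the difference of Cpt1a was -0.25.

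Acaa2 and Cpt1b are named after their values were seen. Acaa2 encodes the mitochondrial thiolase of the last step of the spiral. Acaa2 had lowest, median and highest values of 12.72, 12.74 and 12.86 in vehicle, 12.05, 12.62 and 12.74 at 0.05 mg/kg, 12.01, 12.54 and 12.83 at 0.54 mg/kg, 12.57, 12.73 and 12.95 at 5.41 mg/kg, 12.05, 12.37 and 12.67 at 54.1 mg/kg, and 12.44, 12.67 and 12.89 at 541 mg/kg. Its vehicle samples lay within a band of 0.14, and all 6 samples at 54.1 mg/kg lay below the lowest of them, whereas the 541 mg/kg samples overlapped vehicle. The difference at 54.1 mg/kg was -0.41 ± 0.11 (limma adjusted p = 0.189), while the second probe set of Acaa2, at a mean of 7.68, differed by 0.016. Cpt1b, the muscle form of Cpt1, was dim at 5.16 to 5.34 in the group means and differed by -0.19 at 54.1 mg/kg (limma adjusted p = 0.432).

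Acadm encodes medium chain acyl-CoA dehydrogenase, Decr1 encodes 2,4-dienoyl-CoA reductase, and Pdk4 encodes a kinase that switches off pyruvate dehydrogenase and so favours fat as fuel. Acadm had lowest, median and highest values of 12.27, 12.33 and 12.35 in vehicle, 12.28, 12.30 and 12.44 at 0.05 mg/kg, 12.28, 12.35 and 12.42 at 0.54 mg/kg, 12.24, 12.29 and 12.44 at 5.41 mg/kg, 12.14, 12.25 and 12.34 at 54.1 mg/kg, and 12.21, 12.28 and 12.35 at 541 mg/kg. Decr1 had lowest, median and highest values of 11.89, 12.03 and 12.10 in vehicle, 11.81, 11.93 and 12.14 at 0.05 mg/kg, 11.90, 12.05 and 12.11 at 0.54 mg/kg, 11.88, 11.98 and 12.20 at 5.41 mg/kg, 11.97, 12.01 and 12.16 at 54.1 mg/kg, and 11.79, 11.95 and 12.003 at 541 mg/kg. Pdk4 had lowest, median and highest values of 9.56, 9.71 and 9.92 in vehicle, 8.97, 9.60 and 10.03 at 0.05 mg/kg, 8.79, 9.75 and 9.99 at 0.54 mg/kg, 8.85, 9.83 and 10.12 at 5.41 mg/kg, 8.97, 9.78 and 9.90 at 54.1 mg/kg, and 8.81, 9.40 and 9.89 at 541 mg/kg. Acadm and Decr1 varied little in any group, whereas Pdk4 had a sample at 8.97 or lower in all 5 dosed groups and none below 9.56 in vehicle. At 541 mg/kg the differences were -0.040 for Acadm, -0.072 for Decr1 and -0.33 for Pdk4 (limma adjusted p = 0.842, 0.774 and 0.674). The trifunctional protein genes Hadha and Hadhb differed by -0.09 and -0.048. The remaining mitochondrial members, Cpt2, Slc25a20, Acadl, Acadvl, Eci1 and Acot2, differed by between -0.016 and 0.048 at 541 mg/kg.

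None of the 9 uptake and regulatory genes passed the FDR. Slc27a2 encodes a very long chain acyl-CoA synthetase and transporter, and Fabp1 was introduced above. Slc27a2 had lowest, median and highest values of 12.80, 12.82 and 12.88 in vehicle, 12.81, 12.86 and 12.92 at 0.05 mg/kg, 12.70, 12.88 and 12.92 at 0.54 mg/kg, 12.80, 12.85 and 12.95 at 5.41 mg/kg, 12.79, 12.87 and 12.91 at 54.1 mg/kg, and 12.78, 12.88 and 12.92 at 541 mg/kg. Fabp1 had lowest, median and highest values of 13.93, 13.97 and 14.03 in vehicle, 13.92, 13.95 and 13.996 at 0.05 mg/kg, 13.96, 13.99 and 14.01 at 0.54 mg/kg, 13.88, 13.93 and 14.02 at 5.41 mg/kg, 13.91, 13.96 and 13.99 at 54.1 mg/kg, and 13.88, 13.91 and 13.95 at 541 mg/kg. Both were among the brightest and least variable members. Fabp1 differed from vehicle at 541 mg/kg by -0.062 ± 0.035 (limma adjusted p = 0.618), and Slc27a2 by 0.039 (0.832). Acot1 is a cytosolic acyl-CoA thioesterase, and Vnn1 is a pantetheinase and PPAR-alpha target. Acot1 had lowest, median and highest values of 2.51, 2.75 and 3.37 in vehicle, 2.67, 2.79 and 3.19 at 0.05 mg/kg, 2.58, 2.72 and 4.21 at 0.54 mg/kg, 2.60, 2.85 and 4.04 at 5.41 mg/kg, 2.53, 3.09 and 3.60 at 54.1 mg/kg, and 2.63, 2.76 and 3.22 at 541 mg/kg. Vnn1 had lowest, median and highest values of 9.36, 9.62 and 9.88 in vehicle, 9.43, 9.68 and 10.21 at 0.05 mg/kg, 9.45, 9.65 and 9.78 at 0.54 mg/kg, 9.55, 9.75 and 9.91 at 5.41 mg/kg, 9.53, 9.76 and 10.21 at 54.1 mg/kg, and 9.53, 9.85 and 9.97 at 541 mg/kg. Acot1 was near the floor of the array in every group, with single higher samples in several. A probe set that Acot2 and Acot1 share, which cannot tell them apart, was brighter than 74.3% of all probe sets. Its unadjusted p in limma's F-test was 0.956. Vnn1 was higher than vehicle by 0.21 at 54.1 mg/kg and 0.18 at 541 mg/kg (limma adjusted p = 0.594 and 0.666).

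Angptl4 encodes an inhibitor of lipoprotein lipase, and Fgf21 encodes a hepatokine of the fasting response. Angptl4 had lowest, median and highest values of 10.01, 10.43 and 11.06 in vehicle, 9.82, 10.23 and 10.81 at 0.05 mg/kg, 9.74, 10.23 and 11.22 at 0.54 mg/kg, 9.31, 10.57 and 10.70 at 5.41 mg/kg, 9.59, 10.09 and 10.65 at 54.1 mg/kg, and 9.41, 9.70 and 10.59 at 541 mg/kg. Fgf21 had lowest, median and highest values of 6.33, 6.99 and 10.16 in vehicle, 6.34, 6.99 and 8.83 at 0.05 mg/kg, 5.73, 7.99 and 9.06 at 0.54 mg/kg, 6.50, 7.53 and 10.26 at 5.41 mg/kg, 6.14, 6.86 and 8.58 at 54.1 mg/kg, and 5.56, 6.39 and 8.23 at 541 mg/kg. Angptl4 differed at 541 mg/kg by -0.58 ± 0.24 at an unadjusted p of 0.0201, short of the FDR (limma adjusted p = 0.418). Fgf21 differed by -0.93 ± 0.64 at 541 mg/kg (limma adjusted p = 0.711). In both genes 541 mg/kg overlapped vehicle, and the highest vehicle sample of Fgf21, at 10.16, lay more than 3 above the vehicle median. The other 3 members of this class, Acsl1, Plin2 and Creb3l3, differed by between -0.092 and 0.018.

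**Figure D3:**
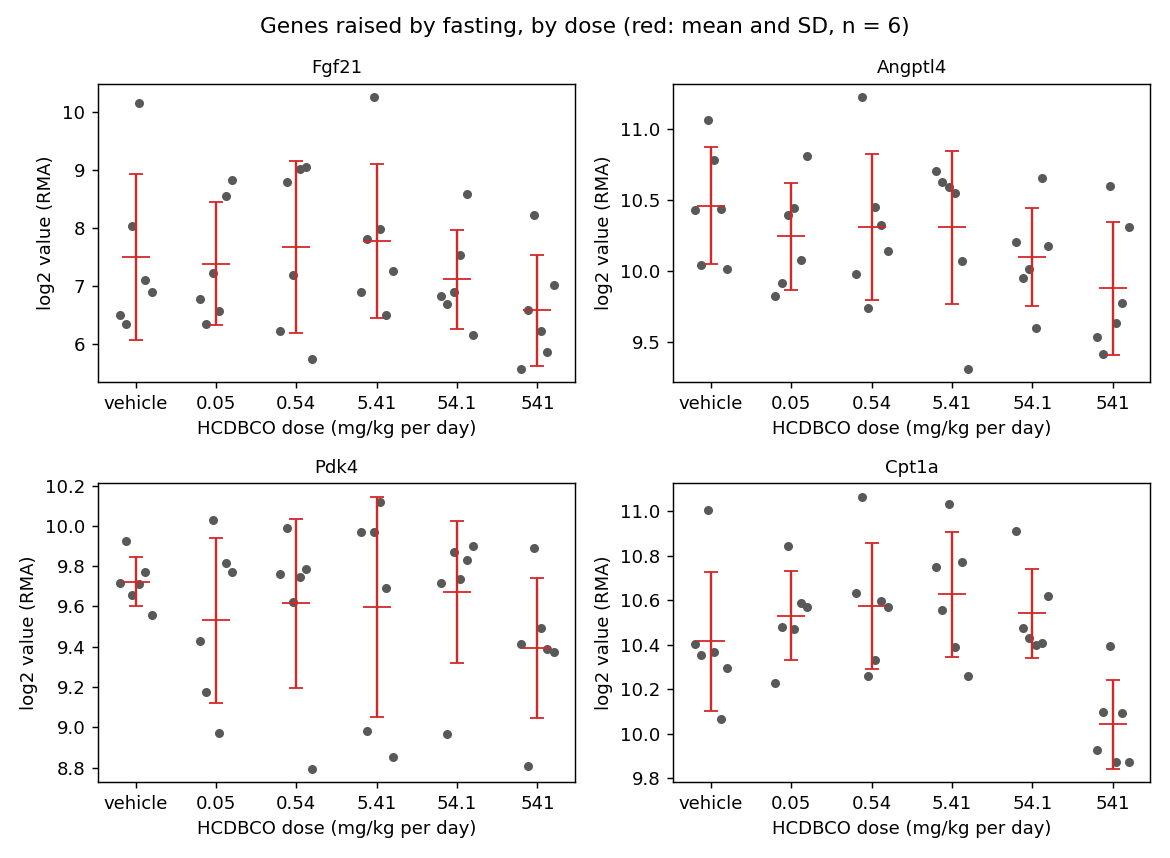
Log2 values of Fgf21, Angptl4, Pdk4 and Cpt1a in each of the 36 arrays (points), by dose, with the group mean and SD (red, n = 6). Means at 541 mg/kg are the lowest of the 6 groups in all 4 panels (6.58, 9.87, 9.40 and 10.04). The 541 mg/kg samples overlap vehicle in each panel. Those of Cpt1a, at 10.395 or less, lie just below the 54.1 mg/kg samples, at 10.399 or more, in the probe set shown but not in a second one. The vertical axes do not start at 0.

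Because these genes respond to food, 2 lists of genes of the fed and fasted liver were read beside them. Of 8 measured genes that fasting raises, 6 were lower than vehicle at 541 mg/kg, with a median difference of -0.24, and none passed the FDR. Tat, which encodes tyrosine aminotransferase, was lowest at -0.47 (limma adjusted p = 0.510). Of 10 genes that feeding raises, 7 were higher, with a median of 0.081, and none passed. Of all probe sets 53.3% were higher at that dose. Among the feeding genes Pnpla3 was highest at 0.72 (limma adjusted p = 0.410), while Pklr went the other way at -0.28 (0.370). At 54.1 mg/kg 8 of the 10 feeding genes were higher, with a median of 0.11. Of these 10, 4 had an unadjusted limma p below 0.05, where 9.2% of all probe sets did. The fasting genes there were 4 higher and 4 lower, with a median of 0.042. At 5.41 mg/kg 6 of the 8 fasting genes and 4 of the 10 feeding genes were higher. None passed the FDR at these doses. Of the 64 cell type markers 33 were lower at 541 mg/kg. The endothelial markers were lower in 7 of 7, with a median of -0.13, and the hepatocyte and stellate cell markers in 6 of 8 each. Fat cell markers were higher in 5 of 7, muscle in 6 of 9 and Kupffer cell in 4 of 7. Bile duct and T and B cell markers were higher in 4 of 5 each, pancreas in 3 of 6 and erythroid in 1 of 3. No endothelial marker passed the FDR, and 3 of the 7 had an unadjusted limma p below 0.05, where 9.07% of all probe sets did. At 54.1 mg/kg 4 of the 7 endothelial markers were higher. The part of these lists in the values of Cpt1a, Angptl4 and Fgf21 was not tested.

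Across all groups at once no member passed the FDR of limma's F-test, where 0.0999% of probe sets did. At an unadjusted p below 0.05 there were 3 of 34, Cyp4a8, Cpt1a and Acaa2, against 5.99% of probe sets. The linear trend gave 3 members at that unadjusted level, Cyp4a8 with a positive slope and Cpt1a and Angptl4 with negative ones, against 12% of probe sets. For the mean of the 3 lowest doses against vehicle, 0 members passed limma's FDR (background 0%) and 0 had an unadjusted p below 0.05 (background 4.23%). The 2 highest against the 3 lowest doses, a comparison without the vehicle arrays, gave 4 members at the unadjusted level, against 8.61% of probe sets. They were Cyp4a8, which was higher, and Cpt1a, Ech1 and Acadm, which were lower.

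The spread between vehicle samples was near that of all probe sets. The median SD of the members over the 6 vehicle samples was 0.127, against 0.129 over all probe sets. Fgf21 had the largest vehicle SD, at 1.43, followed by Angptl4 (0.41), Cpt1a (0.31) and Acot1 (0.31). Slc27a2 (0.029) and Acadm (0.030) had the smallest. Vehicle had the largest SD of the 6 groups for 3 of 34 members, Cpt1a, Eci1 and Acsl1, against 14.8% of all probe sets. It had the smallest for 8 members, against 17% of all probe sets. Among those 8 were Pdk4, with a vehicle SD of 0.12 against 0.35 to 0.55 in the dosed groups, and Acaa2, with 0.057 against 0.12 to 0.29. In a second probe set of each gene vehicle stood out less. That of Pdk4 ranged from 7.462 to 8.126 in vehicle and from 7.186 to 8.048 at 5.41 mg/kg. That of Acaa2 ranged from 7.477 to 7.902 in vehicle and from 7.456 to 8.002 at 0.54 mg/kg. No test of spread was made.

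The 5.41 mg/kg group had the largest spread in these genes. The median SD of the members was 0.216 there, against 0.138 over all probe sets, and between 0.127 and 0.149 in the other 5 groups. It had the largest SD for 17 of 34 members, among them all 3 Cyp4a genes, against 21.4% of all probe sets. Without replicate 4 of that group the count was 11 and the median SD was 0.145, within the range of the other groups. By class the median SD at 5.41 mg/kg was 0.345 for Cyp4a, 0.220 for peroxisomal, 0.142 for mitochondrial and 0.189 for uptake and regulatory genes.

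**Figure D4:**
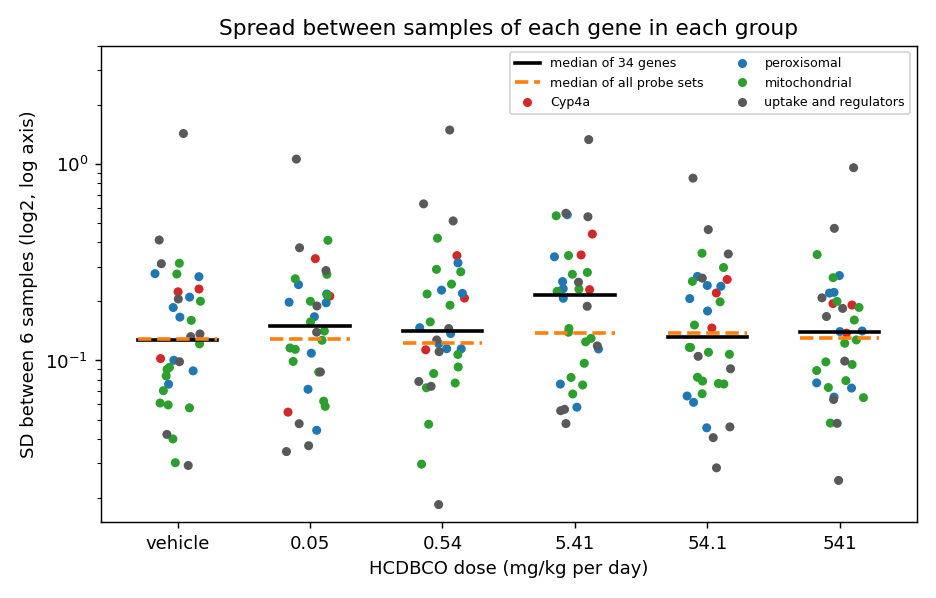
SD between the 6 samples of a group for each of the 34 genes (points, coloured by class, log axis), with the median of the genes (black) and of all probe sets (dashed). The black line stands at 0.127 in vehicle, beside 0.129 for all probe sets, and at 0.216 at 5.41 mg/kg, beside 0.138. Fgf21 is the highest point in every group.

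Within a group, samples high in one member tended to be high in others. Over deviations from the group means in 36 arrays, the median Pearson correlation of 2 members was 0.33, and 85.9% of pairs were positive. Pairs of named genes in general had a median of -0.001. Brightness moved with this: among genes with a mean of at least 8 it was 0.38 for 29 members and 0.071 for all 3701 named genes. The peroxisomal genes were the most alike, with a median of 0.53 and all pairs positive, followed by mitochondrial genes at 0.31 and uptake and regulatory genes at 0.28. The 3 Cyp4a genes, which give few pairs, had a median of -0.093, with 33.3% of their pairs positive. With the other members, Cyp4a1 and Cyp4a3 had median correlations of 0.48 and 0.57, unlike the dim Cyp4a8 (-0.20). These correlations share arrays and normalization and are a description only.

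Cyp4a3 and Creb3l3, which encodes a transcription factor of hepatic lipid metabolism, had the highest correlation of any pair, at 0.85. Cyp4a8 went against the rest, with a median correlation of -0.20 with the other members. Of 11 pairs chosen among Cpt1a, Pdk4, Angptl4, Fgf21, Ehhadh and the Hadha-Hadhb pair, 2 passed a permutation test within groups after adjustment. The test sets a pair against no correlation, whereas the median pair of members had 0.33. A pass therefore does not single out a pair from the rest of the list. Angptl4 and Fgf21 had r = 0.56 (permutation adjusted p = 0.0105) and rho = 0.57 (permutation adjusted p = 0.0118). Without the 2 samples farthest from the median in Angptl4, r was 0.56. The sample farthest in Fgf21, vehicle replicate 4, stayed in. Cpt1a and Angptl4 had r = 0.56 (permutation adjusted p = 0.0105), but rho = 0.42 did not pass (permutation adjusted p = 0.0675). Without the 2 samples farthest from the median in Cpt1a, r was 0.43. Hadha and Hadhb, which share a start region on chromosome 6 and face opposite ways, had r = 0.41 (permutation adjusted p = 0.0857) and rho = 0.42 (permutation adjusted p = 0.0675). Within the 6 groups Angptl4 and Fgf21 correlated at between 0.35 and 0.84, positive in all 6.

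Some samples stood high or low across most of the list. Vehicle replicate 3 lay above the vehicle mean in 30 of 34 members and was the highest vehicle sample in 20. Its array also had the highest upper quartile of all arrays, 7.13, and 29 of the members had a mean of at least 8. The part of its distribution in this count was not tested. Vehicle replicate 6 lay above it in 5 and was the lowest in 15. At 0.54 mg/kg replicate 5 lay above the group mean in 31 members, and at 5.41 mg/kg replicate 1 did so in 33. In the same 4 arrays between 47.9% and 49.8% of all probe sets lay above their group mean. Samples high and low in most of these genes were found in vehicle as in the dosed groups.

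**Figure D5:**
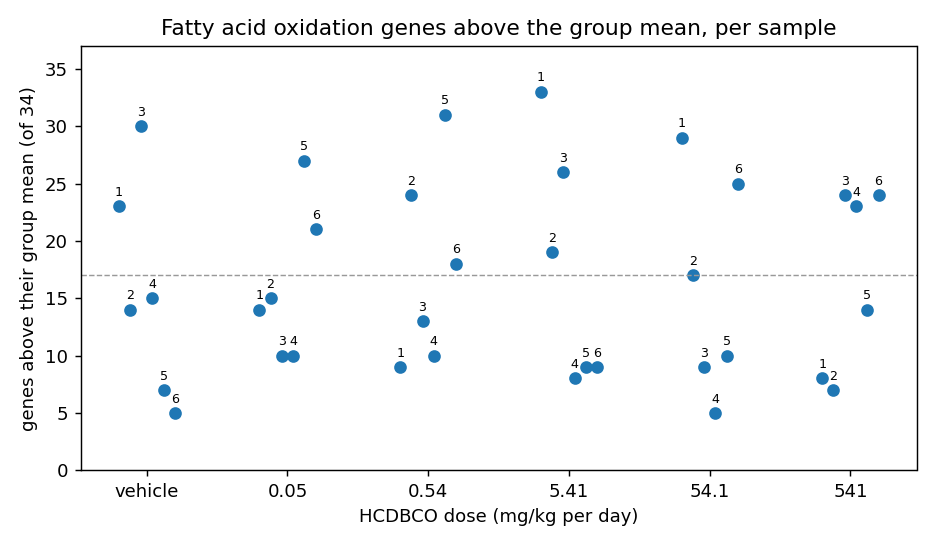
Number of the 34 genes above their group mean in each of the 36 samples, by dose, with the replicate number over each point. The dashed line marks 17, or 50% of the genes. Vehicle spans 5 to 30 genes, and 5.41 mg/kg spans 8 to 33.

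Of 119 listed genes 107 were measured, in receptor and cofactor, other peroxisomal, other mitochondrial and lipid handling groups. None passed the FDR at the 3 lowest doses, 1 of 107 rose at 54.1 mg/kg (0.0741% of all probe sets passed), 1 rose at 541 mg/kg (0.155%), and none fell at a dose. Over the dose order 3 of 107 rose and 3 fell, where 0.715% of all probe sets passed in either direction. At the 2 highest against the 3 lowest doses 2 rose and 1 fell, where 0.287% passed. The median difference of the 107 at 541 mg/kg was -0.0083. Ppara itself, which encodes the receptor, had a mean of 5.02 ± 0.26 in vehicle, 5.52 ± 0.26 at 54.1 mg/kg and 5.17 ± 0.29 at 541 mg/kg (SD, n = 6), and passed in no comparison. It was dim, as its vehicle mean lay below the median of all probe sets, 5.11.

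Acad9, which encodes an acyl-CoA dehydrogenase that also serves assembly of respiratory complex I, was 9.44 ± 0.06 in vehicle and 9.78 ± 0.13 at 541 mg/kg (SD, n = 6). Its rise at 541 mg/kg was 0.34 ± 0.06 (limma adjusted p = 0.0018), and the lowest sample, at 9.66, lay above the highest vehicle sample, at 9.52. Me1, the malic enzyme that supplies NADPH to fat synthesis, rose at 54.1 mg/kg by 0.52 ± 0.11 (limma adjusted p = 0.0381). At 541 mg/kg it was 0.43 higher (limma adjusted p = 0.0947), while a second Me1 probe set passed at 0.64 (limma adjusted p = 0.0280). Abcd2, a peroxisomal transporter of very long chain fatty acids, rose over the dose order by 0.11 per step (limma adjusted p = 0.0492).

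Hacl1 and Phyh, of the peroxisomal alpha-oxidation that shortens branched fatty acids by a single carbon, fell over the dose order. Hacl1, the lyase of that route, had a mean of 10.82 ± 0.43 in vehicle, 10.13 ± 0.20 at 54.1 mg/kg and 10.12 ± 0.24 at 541 mg/kg (SD, n = 6). Over the dose order Hacl1 decreased by 0.15 per step (limma adjusted p = 0.0037), and its difference at 541 mg/kg, -0.71, missed the FDR (limma adjusted p = 0.0536). Phyh, the hydroxylase before it, decreased by 0.050 per step (limma adjusted p = 0.0343), and by 0.23 at the 2 highest against the 3 lowest doses (limma adjusted p = 0.0142). A second Phyh probe set had a slope of -0.030 and did not pass (limma adjusted p = 0.172). Apoa5, an apolipoprotein that promotes clearance of triglycerides, decreased by 0.044 per step (limma adjusted p = 0.0409).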

How the data were processed

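The deposited table holds 1 value per probe set and array for 36 one-colour Affymetrix rat arrays. Per the submitters' processing notes the authors made these values with RMA and the affy package, whose versions are not given in the sources used here. The authors' deposited values were taken as log2 values, which is the scale of RMA, with a range of 1.94 to 14.7. Scanner intensities were not used here.

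The 57 control probe sets of 31099 were left out. Of the 31042 tested, 20826 had 1 gene symbol, 436 several and 9780 none listed. Probe sets with several symbols named no gene, apart from the shared probe sets given as such. A design with 6 group means and no covariate was fitted to all 36 arrays with limma 3.58.1 in R 4.3.3 (lmFit, eBayes), with two-sided tests and Benjamini-Hochberg adjustment over all 31042 probe sets. Each dose was set against vehicle, and a linear trend over dose order, the 3 lowest doses against vehicle, the 2 highest against the 3 lowest and an F-test were added. The design text names another R package for the same contrast, which was not used. No labelled batch could be entered. Precision is limited by the number of arrays, and the standard error of a dose difference had a median of 0.0799 over probe sets. Pair correlations used 100000 permutations within groups and were adjusted over 11 pairs. The procedure was tested on simulated data.

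The members, the other lists and the tests were chosen with earlier results of these data known. Group values were given in full for the members past the FDR, the Cyp4a genes, the members of each class with the smallest p, those with the largest and smallest vehicle SD, and Fgf21, Cpt1a, Pdk4, Angptl4 and Ehhadh. Alternatives tried were a filter on dim probe sets, median centring, quantile normalization, array weights, a trended robust prior, a replicate block, only the compared groups, the probe set with the smallest p, an FDR of 10% and leaving out each replicate. Promoter sequences came from RefSeq tables of GRCr8; the build used for the array annotation is not given in the sources used here.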

Additional observations from a re-analysis of the deposited data

Results flagged for a closer look

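Each of the 34 genes was checked in each of the 6 groups for 1 sample whose gap to the nearest other was large against the range of the group (Dixon's test for 6 samples at the 95% level). Of 204 such checks 10 had such a sample, or 4.9%, where chance gives about 5%. On the log2 scale these were Cpt1a in vehicle replicate 3 at 11.005, Acadm in 0.05 mg/kg replicate 2 at 12.44 and Acaa2 in the same sample at 12.048. Pdk4 was low in 0.54 mg/kg replicate 6 at 8.795 and in 54.1 mg/kg replicate 2 at 8.968. Slc27a2 stood at 12.702 in 0.54 mg/kg replicate 4 and Plin2 at 11.502 in 0.54 mg/kg replicate 1. Acot1, near the floor of the array, stood high in 0.05 mg/kg replicate 5 at 3.191 and in 0.54 mg/kg replicate 5 at 4.213. Creb3l3 stood at 10.972 in 541 mg/kg replicate 2.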

How the results depend on the processing

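The count of members past the FDR was 0 at each of the 5 doses against vehicle under all 9 other settings and without any one replicate, as it was for the 3 lowest doses against vehicle. For the 2 highest against the 3 lowest doses it was 1 under the same 9 settings and in all 30 fits without 1 array. For the trend it was 1 in 8 of 8 other settings and 0 to 1 without 1 array, and for the F-test it was 0, 1 at an FDR of 10%, and 0 to 1 without 1 array, with 1 only without 5.41 mg/kg replicate 4. The cause was not tested. With the replicate number as a replicate block the trend count was 1 and the other counts were as before. The numbers gave no sign of pairing the samples, though this was not tested and the labels do not say. The mean correlation of deviations was 0.014 for arrays of the same number and -0.0028 otherwise. Of 36 arrays 5 correlated best with one of their own number. The number of members with the largest SD at 5.41 mg/kg, 17, ranged from 11 to 19 without 1 array of that group, a check added after the data were seen. Of 3501 values recomputed for 136 results of named members, 8 (Cyp4a8 over the dose order) missed the FDR and none was reversed. Another 8, which did not pass, moved by more than their error, and 3485 were counted as the same. For results past the FDR only call and sign were compared, not the size of the move. Cyp4a8 at the 2 highest against the 3 lowest doses, 0.29, kept its call but ranged from 0.26 to 0.55. The median vehicle SD of the members, 0.127, ranged from 0.104 to 0.142 without 1 vehicle array. The filter on dim probe sets left 33 members, without Acot1. Array signal limits the members Cyp4a8, Cpt1b and Acot1, and also Ppara, which were dim.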
